A study of Mus musculus with 9 samples.

Results

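A T cell receptor is a pair of an alpha and a beta chain, and the members described here are cells of expanded beta clones in which both chains were read. They are CD8+ T cells of 3 mouse B16F10 melanomas whose beta chain, as numbered in the deposited tables, was found in 2 or more cells of the tumour, and which also had a deposited alpha chain. The clone of the spiked-in Pmel-1 cells was left out. The rule found 17591 cells in 997 beta clones, of 36434 tagged cells in all and 24393 with both chains. They divided into 10624 cells of 371 clones in the anti-CD4 tumour, 3469 cells of 307 clones in the tag 1 tumour and 3498 cells of 319 clones in the tag 2 tumour. The comparison group was the 6108 paired cells whose beta chain was found in 1 cell only (957, 1009 and 4142 in the same order), here called single-cell clones.

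The study sequenced a targeted immune panel and the receptor CDR3s of tumour CD8+ T cells, with cells loaded into microwells on BD Rhapsody cartridges, from female C57BL/6 mice aged 8 weeks, on day 14 after subcutaneous inoculation of B16F10, a transplantable melanoma line. One cartridge held the tumour of a mouse given anti-CD4 antibody (clone GK1.5), which carried sample tags 5 and 6, and splenic T cells of Pmel-1 receptor-transgenic mice under tags 7, 8 and 9. The other cartridge held the tumours of an untreated mouse and of a mouse given anti-PD-L1 antibody (clone 10F.9G2), under tags 1 and 2, and which tag marks which mouse is not given in the labels. Antibodies were given intraperitoneally, 200 µg on days 5 and 9; anti-CD45.2 injected intravenously 3 minutes before death marked blood cells, which were gated out, and sorted cells were over 95% pure. Each treatment had 1 mouse, so treatment, animal and, for anti-CD4, cartridge cannot be told apart, and p-values across the 3 tumours measure only the spread between these animals.

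The cells fitted their label: at least 1 of 5 T cell markers (Cd3e, Cd3d, Cd3g, Cd8a, Cd8b1) was read in 98.98% to 100% of cells of every alpha chain class, and Cd4 in at most 0.62%. Panel reads summed to 326646895, 160802452 and 267790759 over tagged cells of the 3 tumours (anti-CD4 first, then tag 1 and tag 2), with medians of 21107, 16630 and 12859 per cell. The cartridges shared 382 cell barcodes; 399 members carried one, and none of these pairs had the same beta clone. Among expanded beta clones, 40 were found in both the tag 1 and tag 2 tumours, 2 in the anti-CD4 and tag 1 tumours and 1 in all 3.

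The alpha locus rearranges in the thymus after the beta chain has been fixed and the cell has divided, so daughters of one beta rearrangement can leave the thymus with different alpha chains. Alpha rearrangement also runs on both chromosomes, and a single T cell can carry a pair of alpha transcripts. In C57BL/6 mice the TRAV genes lie in repeated blocks on chromosome 14, and many have near-identical copies, whose names carry a D or N. An alpha CDR3 joins the end of a TRAV gene to a TRAJ gene, with trimmed and added bases between them.

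The sequences that carry most of what follows belong to 1 recurrent chain, of TRAV6 and TRAJ30. They are the 4 nucleotide versions of its most frequent CDR3, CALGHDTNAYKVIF, then the leading version with aspartate and the leading one with glycine at residue 5. Capitals mark codons 4 and 5, counted from the cysteine codon, which hold all the differences between them.
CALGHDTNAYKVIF, codon 4 GGT: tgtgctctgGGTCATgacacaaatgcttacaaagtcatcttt
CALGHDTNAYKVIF, codon 4 GGG: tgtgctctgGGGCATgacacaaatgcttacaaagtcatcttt
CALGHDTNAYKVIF, codon 4 GGC: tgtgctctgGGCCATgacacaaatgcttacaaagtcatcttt
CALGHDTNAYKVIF, codon 4 GGA: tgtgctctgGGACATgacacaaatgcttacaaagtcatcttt
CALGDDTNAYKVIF: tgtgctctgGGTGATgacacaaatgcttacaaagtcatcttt
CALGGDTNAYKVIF: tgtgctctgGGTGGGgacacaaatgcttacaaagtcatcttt
RefSeq's annotation of GRCm38 places Trav6d-7 at chr14:53007632-53008098, its copy Trav6-7-dv9 at chr14:53709943-53710419 and Traj30 at chr14:54189866-54189924. The CDR3 spans the V-J junction of the rearranged gene and so has no single position in the genome.

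An alpha chain was read more often in cells of expanded clones than in single-cell clones in all 3 tumours. In the anti-CD4 tumour 94.8% of 11207 beta-chain cells of expanded clones had one (95% exact interval 94.4–95.2%), against 87.2% of 1097 single-cell clones (85.1–89.2%). In the tag 1 tumour the shares were 71.9% (70.6–73.1%) and 63.6% (61.2–66.0%), and in the tag 2 tumour 82.1% (80.9–83.2%) and 58.8% (57.6–59.9%). The groups did not overlap within any tumour, and the mean difference was 13.1 ± 8.91 percentage points (SD, n = 3 tumours; exact sign-flip permutation test, two-sided, p = 0.25, the smallest that 3 tumours allow). Median panel reads per cell differed in the same direction: 22102 against 13129, 19722 against 14602 and 32090.5 against 11623.5. The part of depth in the difference in detection was not tested. Intervals here and below are Clopper-Pearson and cover counting error only.

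Most beta clones had 1 alpha chain in most of their cells. Of the clones with at least 2 paired cells (347, 261 and 239), the chain found in most cells, called the main alpha, held 78.7% of 10600 cells in the anti-CD4 tumour (77.9–79.5%), 82.8% of 3423 in the tag 1 tumour (81.5–84.0%) and 86.8% of 3418 in the tag 2 tumour (85.6–87.9%). With every difference in V gene, J gene or CDR3 nucleotides counted as another chain, 49.0% of clones in the anti-CD4 tumour (43.6–54.4%), 55.6% in the tag 1 tumour (49.3–61.7%) and 54.0% in the tag 2 tumour (47.4–60.4%) had more than 1 alpha chain. The intervals of the 3 tumours overlap for the share of clones and not for the share of cells. Cells of 1 clone are not independent, so the intervals of cells do not compare the tumours. Of the anti-CD4 clones 177 had 1 alpha chain, 101 had 2, 37 had 3 and 32 had 4 or more; the highest number was 33 there, 66 in the tag 1 tumour and 30 in the tag 2 tumour, each within one of the largest clones.

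The share depends on what counts as another alpha. With the V gene ignored the main alpha held 96.3%, 86.2% and 90.7% of the cells, so the anti-CD4 tumour moved from lowest to highest. When V gene names were ignored, CDR3s 1 nucleotide apart were merged and an alpha had to be found in at least 2 cells of the clone, only 24 of 347 clones (6.92%), 16 of 261 (6.13%) and 10 of 239 (4.18%) had more than 1 alpha, and the main alpha held 98.5%, 94.0% and 98.5% of the cells. The denominators keep 20, 28 and 45 clones that had no alpha left under this definition. These definitions were chosen after the values were seen. Each cell has 1 deposited alpha chain, which holds at least 0.6 of its alpha reads, so a cell with 2 alpha chains read about equally could appear as a cell with none.

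Cells without the main alpha of their clone were of different kinds in the 3 tumours. In the anti-CD4 tumour 1858 of 2254 such cells (82.4%, interval 80.8–84.0%) had the main CDR3 and J gene under another V gene name, against 116 of 590 (19.7%, 16.5–23.1%) in the tag 1 tumour and 134 of 452 (29.6%, 25.5–34.1%) in the tag 2 tumour. A CDR3 1 nucleotide from the main one made up 3.11%, 5.42% and 5.09%. The main alpha of another clone of at least 10 cells in the same cartridge made up 7.90%, 18.1% and 14.2%. Another CDR3 found in at least 2 cells of the clone made up 3.11%, 27.5% and 7.96%, and another CDR3 found in 1 cell of the clone 3.46%, 29.3% and 43.1%. The tag 1 tumour thus had the highest share of repeated second CDR3s, and the clone with most of them, a TRBV4 clone, is described below.

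**Figure D1:**
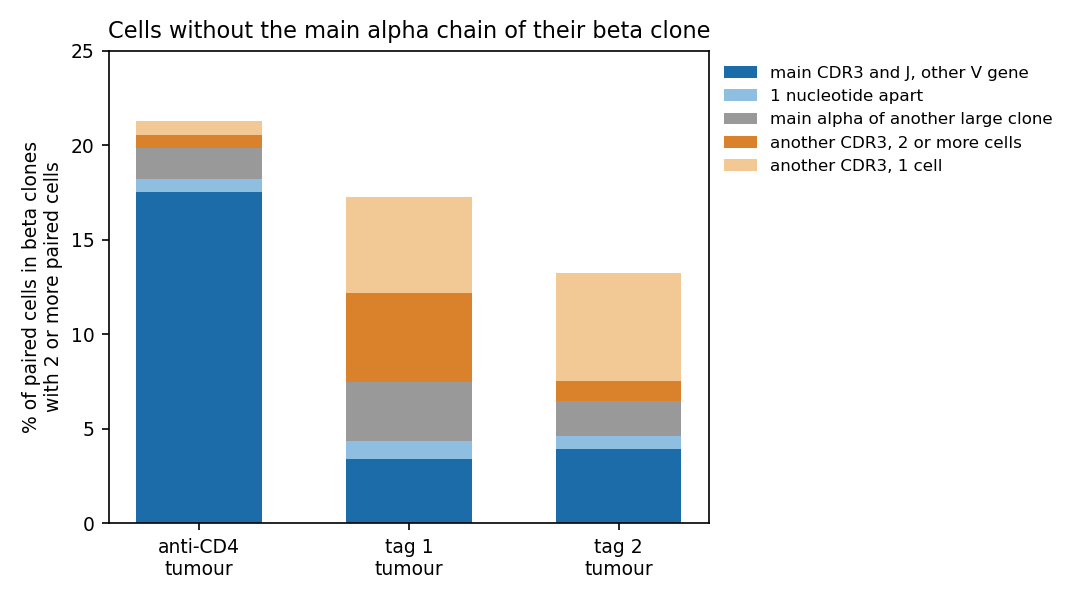
Cells without the main alpha chain of their beta clone, as a percentage of all paired cells of clones with at least 2 paired cells, stacked by class for the 3 tumours. The V gene class reaches 17.5% of cells in the anti-CD4 tumour and stays at 3.39% and 3.92% in the tag 1 and tag 2 tumours.

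Split V gene names were a feature of many large clones. Among clones with at least 10 cells of the main CDR3, 47 of 92 in the anti-CD4 tumour, 11 of 37 in the tag 1 tumour and 20 of 41 in the tag 2 tumour had that 1 CDR3 under several TRAV names. The largest clone, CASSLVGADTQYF (TRBV16), had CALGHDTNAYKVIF under TRAV6D-7 in 1490 cells and under TRAV6-7-DV9 in 555. The clone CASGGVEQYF (TRBV26) had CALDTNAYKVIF under TRAV6-5 in 147 cells and under TRAV6N-5 in 95. In the tag 2 tumour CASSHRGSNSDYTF (TRBV13-3) had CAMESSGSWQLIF under TRAV13D-1 in 174 cells and under TRAV13-4-DV7 in 25.

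The split between TRAV6D-7 and TRAV6-7-DV9 moved with codon 4 of the CDR3 in the anti-CD4 tumour. It also differed between the anti-CD4 and tag 2 tumours. Among 11 anti-CD4 clones with at least 20 cells of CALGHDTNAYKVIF, TRAV6D-7 was named in 72.7–76.9% of the cells of the 3 clones with GGG, in 75.7–77.3% of the 2 with GGC and in 77.3% of the 1 with GGA. In the 5 clones with GGT it was named in 21.7–44.2%. The GGT clones did not overlap with the others. Tags 5 and 6, which split the anti-CD4 mouse, gave 71.8% and 73.9% in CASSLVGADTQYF, and 37.5% and 37.7% in the GGT clone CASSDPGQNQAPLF (TRBV13-3). The widest gap of the 11 clones was 34.8% of 23 cells and 55.0% of 20, in the GGT clone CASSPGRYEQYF. In the 6 such clones of the tag 2 tumour TRAV6D-7 was named in 92.5% to 100% of the cells, GGT clones included: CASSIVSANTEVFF (TRBV19, GGT) had it in 295 of 297. The tag 1 tumour had no such clone, so cartridge, animal and treatment cannot be told apart here. The codon grouping was made after the values were seen.

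Few clones had a second, distinct alpha CDR3 in at least 10 cells. The largest was a TRBV4 clone of the tag 1 tumour, with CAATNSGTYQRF (TRAV14N-2, TRAJ13) in 391 of 542 paired cells and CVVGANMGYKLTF (a TRAV11 gene, TRAJ9) in 101. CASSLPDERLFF (TRBV3) of the same tumour had 60 cells of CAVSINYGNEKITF and 36 of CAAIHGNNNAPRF. A TRBV5 clone of the anti-CD4 tumour had 70 cells of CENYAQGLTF and 28 of CAAKDYSNNRLTL, and in the tag 2 tumour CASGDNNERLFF (TRBV13-2) had 25 of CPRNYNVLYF and 16 of a TRAV9-4 and TRAJ27 chain. The first and second CDR3s of the TRBV4 and the TRBV5 clone are shown, with no capitals, because they differ along their whole length, unlike the versions of the recurrent chain above.
TRBV4 clone, tag 1, first alpha: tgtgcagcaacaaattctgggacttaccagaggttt
TRBV4 clone, tag 1, second alpha: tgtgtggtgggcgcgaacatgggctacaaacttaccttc
TRBV5 clone, anti-CD4, first alpha: tgtgagaactatgcccagggattaaccttc
TRBV5 clone, anti-CD4, second alpha: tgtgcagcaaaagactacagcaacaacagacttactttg

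Many cells of these clones also held reads of a further alpha chain or had no deposited alpha. In the TRBV5 clone the leading chain held less than all alpha reads in 57 of the 70 cells with the first alpha and in all 28 with the second, and 33 of its 132 beta-chain cells had no deposited alpha. In the TRBV4 clone these values were lower for further reads, 85 of 391 and 38 of 101, and higher for cells without an alpha, 377 of 919. Among anti-CD4 clones of at least 20 beta-chain cells, the 6 with a second CDR3 in at least 5 cells that was not the main alpha of another large clone had a median of 28.5% of cells without an alpha (13.3–38.5%), against 3.92% (0.0–24.2%) in the other 59. The other 59 include 2 clones whose second CDR3, in 9 and 5 cells, was the main alpha of a large clone, with 5.38% and 7.32% of cells without an alpha. In the tag 1 and tag 2 tumours 2 clones each gave 31.2% and 20.4%, against 25.7% and 12.7% in the other 21 and 34. The ranges of the 2 kinds of clone overlap in every tumour.

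The spike-in did not serve as a background for alpha chains. Of its 788 cells 624 had an alpha, in 229 distinct versions, and the most frequent one was in 28.4% (24.9–32.1%), so the clone did not carry 1 alpha in these tables. In 54 of the 624 (8.65%, interval 6.57–11.1%) the alpha was the main alpha of an anti-CD4 tumour clone of at least 10 cells. Among single-cell beta clones, the alpha was the main one of a large clone of the same cartridge in 6.79%, 10.0% and 4.23% of cells. How such cells arose was not tested.

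One alpha CDR3 recurred across many beta clones. Its form is CALG, then 1 of 4 residues, then DTNAYKVIF, with TRAJ30 and a TRAV6 gene, and it was chosen after its values were seen. It was the main alpha of 59 of 371 expanded clones in the anti-CD4 tumour (15.9%, interval 12.3–20.03%), 8 of 307 in the tag 1 tumour (2.61%, 1.13–5.07%) and 23 of 319 in the tag 2 tumour (7.21%, 4.63–10.6%). The chain was read in 53.1%, 2.34% and 26.1% of the member cells. Among anti-CD4 clones of at least 10 paired cells 31 of 99 had it, and among smaller expanded clones 28 of 272. Among single-cell clones it was in 3.76%, 1.49% and 1.79%, and after leaving out alpha sequences that were also main in a large clone, in 1 of 892, 2 of 908 and 8 of 3967. Among expanded clones the share was highest in the anti-CD4 tumour. Among single-cell clones it was also highest there before those sequences were left out. Leaving them out removes versions of the chain itself, so the 1, 2 and 8 cells left cannot rank the tumours.

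The recurrence was not that of 1 nucleotide sequence. Over the 3 tumours 53 clones had histidine at residue 5 in 4 nucleotide versions, 19 had aspartate in 4, 17 had glycine in 5 and 1 had glutamate. The anti-CD4 tumour alone had 14 versions, the tag 1 tumour 5 and the tag 2 tumour 7. The GGT and GGG versions of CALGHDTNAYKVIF, printed above, were the main alpha of 27 and 18 clones. They were read in 1507 and 3156 cells of the anti-CD4 tumour, in the tag 2 tumour in 357 and 288, and in the tag 1 tumour in 13 and 16. The beta chains beside it were varied: the 59 anti-CD4 clones had 55 distinct beta CDR3s and 9 TRBV genes. With the recurrent chain included, CDR3s in more than 1 clone were held by 24.8% of anti-CD4 clones, 11.1% of tag 1 clones and 10.5% of tag 2 clones, and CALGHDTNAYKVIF was the most shared in each. Of alpha CDR3s, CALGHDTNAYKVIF, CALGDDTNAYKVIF and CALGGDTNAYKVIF were the main alpha in all 3 tumours.

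Counted over expanded clones, the recurrent alpha chain was found mostly with TRBV19. TRBV19 was used by 38 of the 59 anti-CD4 clones with the chain (64.4%, interval 50.9–76.4%), against 15 of the 312 other expanded clones (4.81%, 2.72–7.81%). In the tag 1 tumour 6 of 8 used it (75.0%, 34.9–96.8%), against 8.03% of 299, and in the tag 2 tumour 12 of 23 (52.2%, 30.6–73.2%), against 5.41% of 296. The intervals with and without the chain lie apart in each tumour; the gene was picked after its values were seen. Single-cell clones, which are no members, gave 15 of 36 (41.7%, 25.5–59.2%) against 5.97%, 4 of 15 (26.7%, 7.79–55.1%) against 5.23% and 14 of 74 (18.9%, 10.7–29.7%) against 6.86%, although most of their chains were also main in a large clone, as counted above. TRBV13 and TRBV12 went the other way in the anti-CD4 tumour, in 5 and 1 of 59 clones with the chain against 61 and 53 of 312 without. Cells were not counted by TRBV gene, and the largest clone with the chain did not use TRBV19. Of 5639 anti-CD4 cells with the chain, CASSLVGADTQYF (TRBV16) held 2045, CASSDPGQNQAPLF (TRBV13-3) 769 and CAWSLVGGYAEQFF (TRBV31) 366. The TRBV19 clones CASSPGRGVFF and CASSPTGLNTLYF held 668 and 447. The beta CDR3s of clones with the chain had a median of 13 residues in every tumour.

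**Figure D2:**
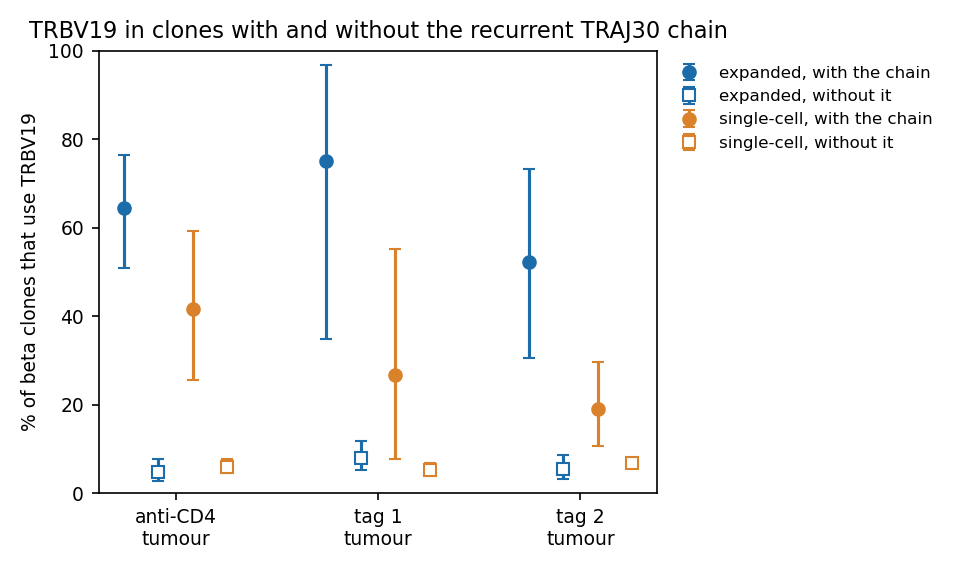
Share of beta clones that used TRBV19 among clones with (filled) and without (open) the recurrent TRAJ30 chain, for expanded and single-cell clones of each tumour, with exact 95% intervals. All 6 shares with the chain, from 18.9% to 75.0%, lie above all 6 without it, from 4.81% to 8.03%.

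Clones with the recurrent chain differed in state between tumours, as did the other expanded clones. The values are shares of cells with a read after each cell was thinned to 4000 reads, over clones whose main alpha was the chain or 1 nucleotide from it, and they carry no test. The granzyme gene Gzmb was read in 91.6% of 5682 such cells of the anti-CD4 tumour and in 80.1% of 4918 cells of its other expanded clones. In the tag 2 tumour it was read in 30.04% of 952 and 43.3% of 2466, and in the tag 1 tumour in 39.4% of 71 and 57.8% of 3352. Tcf7, a transcription factor of naive and memory T cells, was read in 6.34% against 15.8%, 52.4% against 52.4% and 71.8% against 56.3% in the same order of tumours. Pdcd1, which encodes PD-1, was higher in cells with the chain in all 3: 91.6% against 86.3%, 89.3% against 73.8% and 78.9% against 31.8%. Medians over clones of at least 10 cells did not always follow the shares of cells. In the anti-CD4 tumour they were 90.2% and 90.0% for Pdcd1 and 90.7% and 75.0% for Gzmb. In the tag 2 tumour they were 90.7% and 87.0% for Pdcd1, 14.3% and 40.4% for Gzmb and 74.7% and 65.7% for Tcf7. The tag 1 tumour had only 2 clones of this size with the chain, with Pdcd1 in 38.5% and 89.7% of cells.

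Alpha gene use was compared over distinct alpha chains of a clone, so a chain counts once in a clone however many cells hold it. V copies of 1 CDR3 count as separate chains, and clones with more chains weigh more: the 371, 307 and 319 expanded clones gave 754, 668 and 648 chains. Of 58 TRAV genes tested, 1 passed an adjusted p of 0.05 (1.72%) in edgeR's quasi-likelihood test with tumour as a block. This was TRAV6D-7, at 15.3% of expanded against 2.61% of single-cell chains in the anti-CD4 tumour, 5.54% against 2.78% in the tag 1 tumour and 8.80% against 4.15% in the tag 2 tumour. It was higher in 3 of 3 tumours, by 1.53 on the log2 scale (edgeR adjusted p = 0.0028). No TRAV gene passed with DESeq2, without the block, or with any 1 tumour left out. With only the main alpha of each clone counted, TRAV6D-7 (log2 0.98, edgeR adjusted p = 0.0058) and TRAV6-7-DV9 (0.93, 0.0099) passed. TRAV6D-7 was then at 7.01%, 3.26% and 8.46% of expanded clones, against the same 2.61%, 2.78% and 4.15% of single-cell clones. TRAV6-7-DV9 was at 10.5% against 3.34% in the anti-CD4 tumour, but at 1.95% against 1.88% and 2.51% against 2.17% in the tag 1 and tag 2 tumours.

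Counted over all distinct chains, the other frequent TRAV genes of expanded clones did not pass. TRAV16N was used by 7.29%, 7.93% and 6.48% of expanded chains and by 10.3%, 8.23% and 7.73% of single-cell chains. TRAV3N-3 stood at 6.63%, 7.19% and 3.86% against 7.001%, 4.76% and 5.38%, and TRAV12-1 at 2.65%, 3.89% and 7.72% against 2.19%, 5.45% and 7.27%. In this count TRAV6-7-DV9 was higher in value only in the anti-CD4 tumour, 13.9% against 3.34%, and stood at 1.80% against 1.88% and 1.54% against 2.17% in the others. The difference of all TRAV genes had a median of -0.22 on the log2 scale under library size scaling and -0.08 under TMM.

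No TRAJ gene of 42 tested passed (0.0%), with 7 at an unadjusted p under 0.05 in edgeR and 1 passing in DESeq2. TRAJ30 was the most used J gene, at 33.95% of expanded against 8.57% of single-cell chains in the anti-CD4 tumour, 9.88% against 5.55% in the tag 1 tumour and 13.3% against 7.03% in the tag 2 tumour. It was higher in 3 of 3 tumours (log2 1.27, edgeR adjusted p = 0.088), and it is the gene that passed in DESeq2. With only the main alpha of each clone it was at 21.6%, 9.77% and 10.97% of expanded clones and passed in edgeR (log2 0.96, adjusted p = 0.0009). TRAJ7 was at 2.65% against 1.46%, 6.14% against 2.97% and 5.25% against 2.87% (log2 0.93, edgeR adjusted p = 0.088), and passed under TMM scaling. TRAJ22 was lower in value in all 3 tumours (3.05% against 7.52%, 5.24% against 7.04%, 6.94% against 7.89%), and TRAJ23 higher, without passing. The median over TRAJ genes was -0.28 under library size scaling and -0.02 under TMM.

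**Figure D3:**
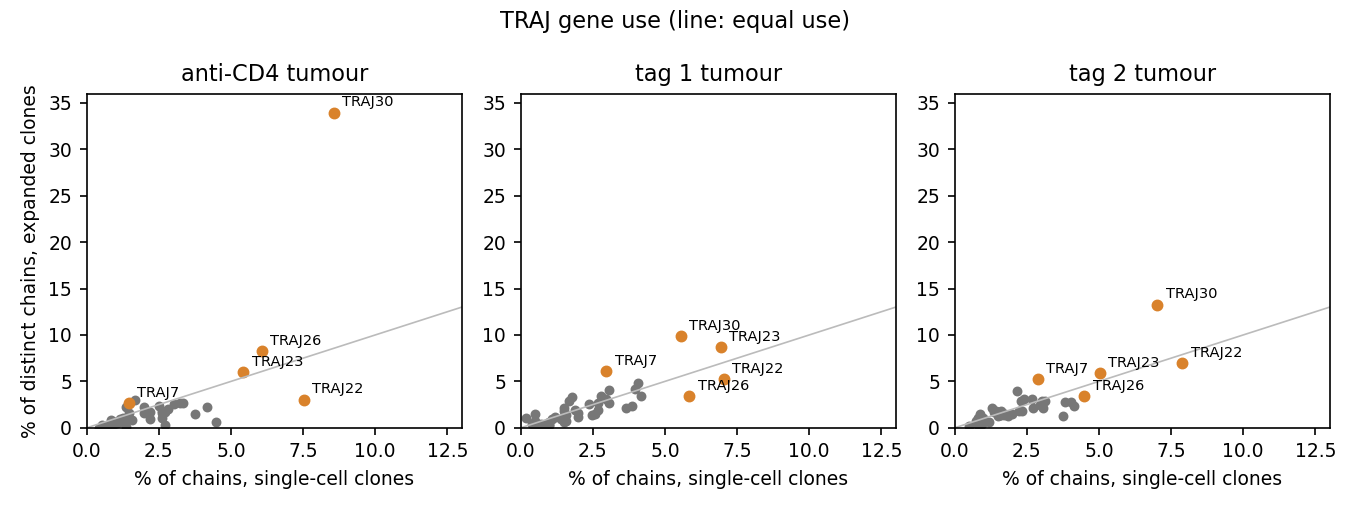
Percentage of alpha chains that used each TRAJ gene among single-cell clones (x axis) and among distinct chains of expanded clones (y axis), 1 panel per tumour, with the 5 most used genes in orange. TRAJ30 lies above the line of equal use in all 3 panels and farthest in the anti-CD4 tumour, at 33.95% against 8.57%.

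Invariant alpha chains were next to absent among the members. The TRAV11 and TRAJ18 pair of invariant NKT cells was read in 0 of 10624, 0 of 3469 and 1 of 3498 member cells, and the TRAV1 and TRAJ33 pair of MAIT cells in none of them. In single-cell clones the first was in 1 of 957, 0 of 1009 and 3 of 4142 cells. The counts of 0 allow up to 3 cells.

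The length of the alpha CDR3 differed between expanded and single-cell clones by less than the spread between tumours. Its mean over distinct chains was 13.62 against 13.73 residues in the anti-CD4 tumour, 13.63 against 13.57 in the tag 1 tumour and 13.82 against 13.63 in the tag 2 tumour, with a median of 14 in all 6 groups. SDs over chains lay between 1.20 and 1.45 residues. The mean difference was 0.05 ± 0.16 residues (SD, n = 3 tumours; exact sign-flip permutation test, two-sided, p = 0.75), and it changed sign between tumours. Of expanded chains in the anti-CD4 tumour 47.7% had 14 residues, the length of the recurrent chain, against 35.3% of single-cell chains.

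The next question was whether alpha subclones of 1 beta clone differ in state. The measure was the mean absolute difference, over 36 genes of 7 lists (naive or memory, checkpoint, effector, cytokine, proliferation, interferon, receptor signal), in the share of cells with a read at 4000 reads per cell. In 27 clones the first and the second alpha each had at least 10 cells, and their difference was 1.38 to 10.8 percentage points, with a median of 5.95. Pairs of different beta clones of at least 10 cells in the same tumour had medians of 10.9 points (4851 pairs, anti-CD4), 15.1 (946, tag 1) and 13.8 (990, tag 2). All 27 subclone pairs lay below the median of their tumour, and 16 below its 5th percentile (6.25, 8.27 and 6.50). Most pairs were V gene names of 1 CDR3, as counted below. Of the pairs of distinct CDR3s, 2 of 2 in the tag 1 tumour lay below the 5th percentile, and 0 of 1 in each other tumour. Among clone pairs with at least as many cells in both clones as a subclone pair's second alpha, 0.0% to 34.3% differed less than that subclone pair. For the TRBV5 clone this share was 21.7%, against 6.33% of all clone pairs. The 27 subclone values are a description: a pair of subclones has no replicate, and small subclones and small clones differ more by counting alone.

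Of the 27 pairs 23 were V gene names of 1 CDR3 and 4 were distinct CDR3s. Whether V gene names of 1 CDR3 mark separate cells was not tested, so the 23 pairs cannot say whether alpha subclones differ in state. In the 4 others many cells held reads of a further alpha chain. The largest pair, in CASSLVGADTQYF, differed by 1.38 points between 1490 and 555 cells. In it 1 of 36 genes, Top2a (a topoisomerase of dividing cells), had separate intervals, 21.7% (19.7–23.9%) and 28.6% (24.9–32.6%). This was the only gene with separate intervals in the 972 comparisons of a gene and a pair. The first and second CDR3 of the TRBV4 clone differed by 2.52 points, those of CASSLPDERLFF by 5.25, those of the TRBV5 clone by 6.55 and those of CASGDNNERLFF by 7.39. In the TRBV4 clone Tcf7 was read in 67.5% of cells with the first CDR3 (62.6–72.1%) and 65.3% with the second (55.2–74.5%), Il7r in 45.3% and 45.5% and Pdcd1 in 22.3% and 24.8%. In the TRBV5 clone the widest gap was Gzmb, 74.3% (62.4–84.0%) against 53.6% (33.9–72.5%). In 11 of the 16 anti-CD4 pairs for which it could be taken, the subclones differed less than the tag 5 and tag 6 cells of the first subclone.

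**Figure D4:**
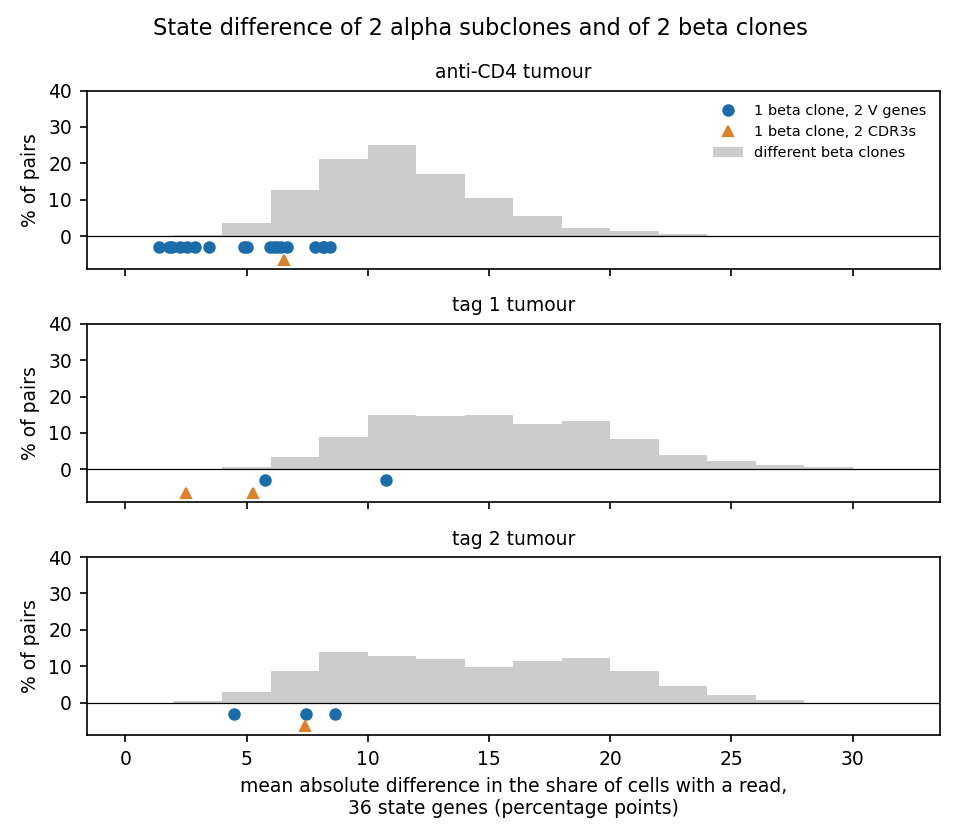
Mean absolute difference in the share of cells with a read over 36 state genes, for pairs of different beta clones (grey, percentage of pairs) and for the first and second alpha subclones of 1 beta clone (circles, 2 V gene names; triangles, 2 CDR3s). The 27 symbols lie between 1.38 and 10.8 points, below the grey medians of 10.9, 15.1 and 13.8.

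Cells with another alpha and main alpha cells were then compared across the panel, summed over all clones with more than 1 alpha. Of 1082 genes tested none passed (0.0%) in edgeR's quasi-likelihood test on read counts with tumour as a block, with 78 at an unadjusted p under 0.05; DESeq2 called 65, of which 40 higher and 25 lower in cells with another alpha. The median difference over all genes was -0.17 on the log2 scale (-0.02 with RLE scaling). Values are given in CPM, panel reads scaled to a common total. Il7r, the interleukin 7 receptor, was at 526 against 432, 4771 against 2367 and 4312 against 1892 (0.74, edgeR adjusted p = 0.67). Tcf7 was at 174 against 133, 2421 against 1780 and 2352 against 1776 CPM (0.33, edgeR adjusted p = 0.67). Lef1, a transcription factor of naive T cells, was higher in value in all 3 tumours (0.67, edgeR adjusted p = 0.70), and the chemokine receptor gene Ccr7 lower (-0.37, 0.67). The DESeq2 calls included Tcf7 (0.47, adjusted p = 1.7e-25), Il7r (0.89, adjusted p = 0.00051) and Lef1 (0.82, adjusted p = 0.021), but not Ccr7. The tools thus differed for these genes.

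The 6 checkpoint genes had a median of -0.29, with Havcr2 and Lag3 lower in value in all 3 tumours; none passed in edgeR, and DESeq2 called Havcr2 (-0.40, adjusted p = 0.0040). The 7 effector genes had -0.18, the 6 cytokine genes -0.07, the 4 interferon genes -0.02 and the 5 receptor signal genes -0.04, and the 3 proliferation genes, all lower in value in all 3 tumours, -0.38. Of these lists DESeq2 called Klrg1, Pclaf and Tnfrsf9, lower, and Fosb, higher. Over all 1082 genes tested, 202 were lower and 113 higher in value in all 3 tumours. Of the genes of widest difference with 1 sign in all 3 tumours, Il7r, Pik3ip1 (0.64) and Gzmm (0.62) were higher in value with another alpha. Spp1 (-0.93), Cd200 (-0.82), Lrrc32 (-0.81), Il1r2 (-0.75), Irf8 (-0.70) and Ube2c (-0.59) were lower. None of these higher or lower genes passed in edgeR, and DESeq2 called all of them but Cd200. Macrophage marker reads stood at 13207 CPM in the anti-CD4 cells with another CDR3 against 750 in main alpha cells, while the share of cells with such a read was 6.17% and 6.99%; their part in these sums was not tested.

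Divided by the kind of alpha and compared with main alpha cells of the same beta clones, the differences were widest for cells whose CDR3 was found in 1 cell of the clone. This division was made after the values were seen. For these cells Il7r was read in 33.3% (interval 23.1–44.9%) of 78 against 17.0% in the anti-CD4 tumour, 62.4% (54.6–69.7%) of 170 against 38.7% in the tag 1 tumour and 72.5% (65.7–78.7%) of 193 against 46.3% in the tag 2 tumour. Tcf7 was read in 48.7% against 29.6%, 72.9% against 57.3% and 80.3% against 57.4%. The main alpha share lay outside the interval for both genes in each tumour. Mean differences were 22.1 ± 5.14 points for Il7r and 19.3 ± 3.63 for Tcf7 (SD, n = 3 tumours; exact sign-flip permutation test, two-sided, p = 0.25 for each, the smallest possible). The 6 checkpoint genes were lower in value in all 3 tumours, with Lag3 at 64.1% against 73.8%, 28.8% against 36.04% and 43.0% against 60.2%, and Ctla4 at 83.3% against 91.8%, 51.2% against 54.7% and 57.0% against 77.8%. In the tag 1 tumour the main alpha share lay within the interval for each of the 6, in the anti-CD4 tumour for all but Tigit and Ctla4, and in the tag 2 tumour for Entpd1 alone. Over all 36 state genes, 15 were lower and 11 higher in value in all 3 tumours in these cells.

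For Tcf7 and Il7r, single-cell beta clones had still higher shares, with Tcf7 in 78.1%, 83.4% and 86.3% and Il7r in 61.5%, 76.4% and 81.7% of cells. The cells with a CDR3 of 1 cell thus lay between the main alpha cells of their clones and the single-cell clones for both genes in each tumour. Their median panel reads were 17368.5, 24130 and 19732, against 20789, 17953 and 31858 in main alpha cells of the same clones. Their leading alpha held less than all alpha reads in 65.4%, 51.2% and 52.3% of cells, against 12.6%, 16.4% and 14.6% of main cells. The part of depth and of further alpha reads in the differences was not tested.

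The other kinds of alpha gave smaller differences for Il7r and Tcf7. Among the main CDR3 under another V gene name, Il7r was at 11.6% against 11.9%, 43.9% against 38.4% and 35.0% against 41.0%, and Tcf7 at 7.11% against 7.21%, 62.8% against 59.6% and 47.8% against 47.8%. Among another CDR3 in at least 2 cells, Il7r was at 15.6% against 12.6%, 43.6% against 43.6% and 44.4% against 52.6%, and Tcf7 at 22.1% against 23.1%, 61.3% against 65.8% and 61.1% against 66.2%. For both genes the main alpha share lay within the interval in both kinds and all 3 tumours, at 77, 163 and 36 cells for the second kind. Where the other alpha was the main one of another large clone, Il7r was at 20.7% against 10.9%, 40.2% against 37.6% and 60.0% against 48.4%, outside the interval in the anti-CD4 tumour alone. Whether the kinds differ from each other was not tested.

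**Figure D5:**
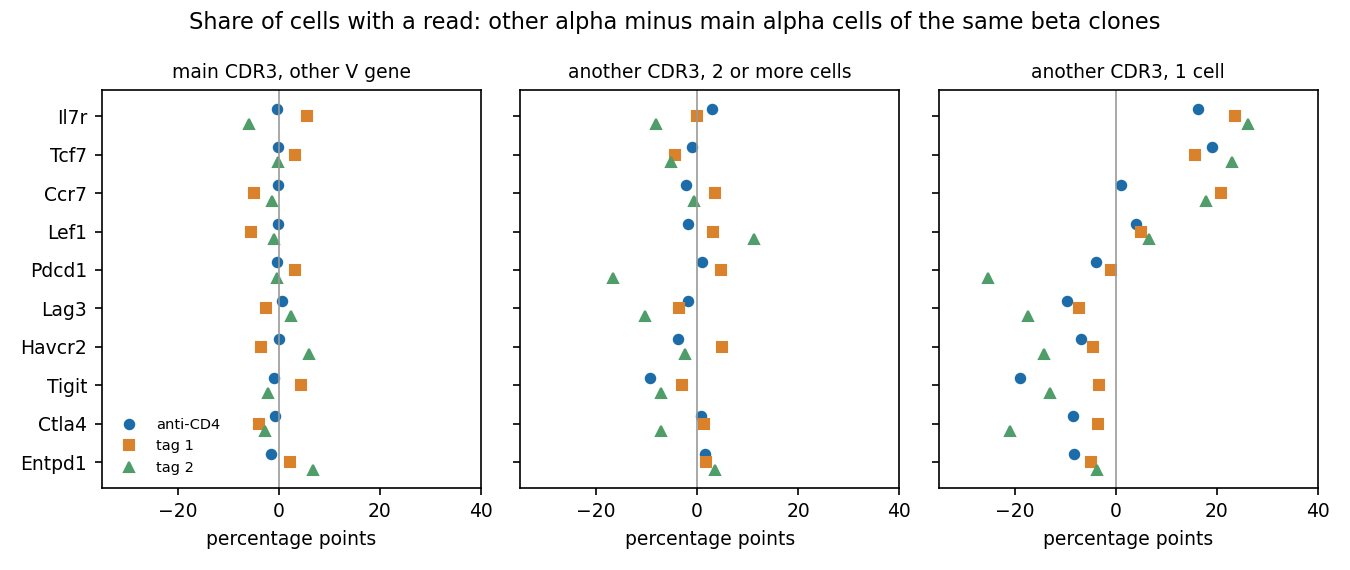
Difference in the share of cells with a read, other alpha minus main alpha cells of the same beta clones, in percentage points for naive or memory and checkpoint genes; panels are kinds of alpha and symbols are tumours. In the right panel Il7r and Tcf7 lie above 0 in all 3 tumours, at means of 22.1 and 19.3 points.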

How the data were processed

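The tools named per the submitters' processing notes are cutadapt (3.2 and 3.4), Bowtie2 (2.4.2) and R (3.6.3), with GRCm38; no receptor caller is named in them. Expression was deposited as one count per gene and cell. These counts were treated as reads and not molecules, since every cell has at least 4361; the 2124 genes present in both cartridges were used. Per the file headers, each chain also has an estimated count of its reads. The authors' fraction column says how much of a cell's alpha or beta reads the listed chain holds, and is never under 0.6. The tables list only the leading chain of a cell. Columns without a sample tag or called doublets (366 and 408) were left out, and no doublet caller was run.

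The members, gene lists and tests were chosen with earlier results of these data known. Tags 5 and 6 were taken as 1 mouse. Gene use (library size scaling, genes with a mean of at least 3 chains) and panel sums (TMM, filterByExpr with a minimum count of 10) were tested with edgeR 4.0.16 in R 4.3.3, with tumour as a block, because both classes come from the same 3 tumours; DESeq2 1.42.0 was the other tool. Both were tested on simulated data. Other values used Python 3.11.15, pandas 2.3.3 and scipy 1.17.1. For state shares each cell was thinned to 4000 reads, and no member had fewer. Named panel genes were the 10 of widest difference with 1 sign in all 3 tumours and at least 10 CPM in each sum, beside the 7 lists; named V and J genes were those past 0.05, the 5 most used and the invariant segments; named clones were the 3 largest of each tumour and up to 6 by cells of the second alpha. The planned use of the spike-in as a 1-alpha background failed, as the report states. The node tables hold beta chains and were not used here. 1 gene of the naive or memory list and of the named panel genes is not reported here.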

Additional observations from a re-analysis of the deposited data

Results flagged for a closer look

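4 quantities had opposite signs in the tumours of different mice, and in none was the difference between tumours tested. The use of TRAV11D in expanded over single-cell clones, on the log2 scale, was -0.98 in the anti-CD4 tumour, 2.402 in the tag 1 tumour and 1.19 in the tag 2 tumour, from 2, 7 and 5 expanded chains. The use of TRAV6-7-DV9 was 2.06, -0.068 and -0.49 in the same order. The use of TRAJ26 was 0.44, -0.76 and -0.40. The alpha CDR3 was shorter in expanded clones by -0.11 residues in the anti-CD4 tumour and longer by 0.059 and 0.20 in the tag 1 and tag 2 tumours.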

How the results depend on the processing

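Shares of clones with more than 1 alpha and of cells with the main alpha moved with the definition of an alpha (anti-CD4, tag 1, tag 2). By CDR3 amino acids and J gene they were 33.1%, 45.2% and 46.9% of clones and 96.7%, 86.4% and 91.0% of cells. With chains of at least 2 cells they were 19.6%, 10.3% and 10.9%, and 80.9%, 91.3% and 95.0%. With leading chains of at least 0.8 of reads, clones gave 42.2% (anti-CD4) and 45.0% (tag 2), and cells 81.7%, 85.1% and 89.8%. In clones of at least 10 paired cells, clones gave 78.8%, 86.4% and 93.3%, and cells 84.2% in tag 1. Ignoring the V gene gave 35.4%, 46.0% and 47.3%, and 96.3%, 86.2% and 90.7%. Merging CDR3s 1 nucleotide apart as well gave 31.7%, 43.3% and 46.4%, and 96.9%, 87.1% and 91.4%; requiring 2 cells also gave 6.92%, 6.13% and 4.18%, and 98.5%, 94.0% and 98.5%. Keeping a clone only in the tumour with most of its cells gave 88.0% of cells in tag 2.

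The length difference was -0.026 (without tag 2) to 0.13 residues with 1 tumour left out. TRAV calls were 0 with DESeq2, with cells in place of chains, by TRAV subgroup over main alphas, and with any 1 tumour left out (0 to 0), and 2 over main alphas. TRAJ calls were 1 under TMM, DESeq2 and main alphas, 16 (all lower) by cells, and 0 to 3 with 1 tumour left out (3 without anti-CD4, 1 without tag 2). Panel calls were 65 with DESeq2. Without the replicate block, in which the tumour pairs both classes by design, 0 TRAV genes were called in place of 1; it changed no other call.

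Signs turned for named genes in these cases (log2). Over main alphas: TRAV16N 0.15, TRAV12-1 0.22, TRAV1 0.65, TRAJ18 0.30. By cells: TRAV6-7-DV9 -0.39, TRAV3N-3 -0.67, TRAV11D -1.10. Under TMM: TRAV12-1 0.067, TRAJ26 0.10. From 5 cells: TRAV3N-3 -0.13. With 1 tumour left out, TRAV6-7-DV9 ran from -0.30 (without anti-CD4) to 1.21. Leaving out tag 1 gave the turned end of TRAV3N-3 (-0.28 to 0.25), TRAV12-1 (-0.14 to 0.17), TRAV1 (-0.21 to 0.069) and TRAJ26 (-0.57 to 0.040). With the main CDR3 and another V gene: Spp1 0.91, Il1r2 0.33, Ube2c 0.072. With another CDR3: Lrrc32 0.20. With alphas of at least 2 cells: Il1r2 0.10. With another CDR3 in at least 2 cells: Il7r -0.11, Irf8 0.17, Pik3ip1 -0.060, Gzmm -0.80, Ube2c 0.14, Tcf7 -0.19. The cause was not tested in any of these. Detection by size over paired cells was not run, since such a size fixes detection. Alternatives that ignore the V gene, merge CDR3s, count main alphas, divide other alphas by kind or keep clones in 1 tumour were chosen after seeing the data. Low depth limits shares of cells with a read; a cell's minor alpha chains are not listed.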
